A study of Rattus norvegicus with 18 samples.

Results

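Gtpbp4 encodes a GTPase of the nucleolus, and its expression was followed here in the kidneys of male and female rats through every probe that the array holds for it. On the array the gene was represented by 1 of 15923 probe sets, 1370144_at, with 11 of 175477 probes, and it was 1 of 9479 genes that could be named. It was picked because its expression differed strongly between males and females of the Mhm*BN group on these same arrays. Its levels by sex and rat group are therefore given as a description and without a test.

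Ribosomes are assembled in the nucleolus from ribosomal RNA and ribosomal proteins with the help of many assembly factors. Gtpbp4, called Nog1 in yeast, binds the precursor of the large ribosomal subunit and stays with it from the nucleolus until its release in the cytoplasm. In the kidney, as in other tissues, such factors are expressed in every cell type, and dividing or growing cells need more of them.

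Total RNA was taken from kidneys of rats at the age of 36 days. US and Mhm rats are inbred lines that go back to Han:SPRD, in which polycystic kidney disease is inherited as a dominant trait. US rats were bred in the USA and Mhm rats in Mannheim. Mhm*BN rats, which the labels call MhmBN, came from a backcross of Mhm with Brown Norway rats, so that a pool of them can hold rats that differ in the alleles they inherited. In all 3 rat groups, the study recorded that the kidney disease advanced much more in males than in females. Its part in the sex differences given here was not tested. Each array held the RNA of 3 pooled rats, and each sex of each rat group had 3 arrays, 18 in all. The labels name no treatment, and the sources used here do not give the genotype of the pooled rats at the disease locus. A p-value in the following therefore measures the spread between pools of rats.

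Median raw intensities were 282 to 485.8 per array and no array repeated another (0 pairs). Of the kidney segment markers, 14 of 16 were measured, and 12 of these lay above the median of all genes. Sry, the only Y-linked gene of the list with a probe set of its own, did not separate the sexes, so it gave no check of the sex of the pools. Chips 25 (male) and 46 (female) of the Mhm*BN group had the lowest mean correlation with the other arrays of their sex and rat group, 0.987 each. The other Mhm*BN arrays had 0.990 to 0.992, also below all US and Mhm arrays, which had 0.993 to 0.997. The differences of Gtpbp4 that rest on chips 25 and 46 are also given without these chips. Chips 1 to 4 were a male and a female array of US and of Mhm rats. On these, 73.6% to 73.8% of the deposited values lay within 0.001 of a whole raw intensity, compared with 25.1% to 25.5% on the others. Among the other 14 arrays males had chip numbers 21 to 38 and females 41 to 58, so that within these the sex of the rats and the run of chip numbers cannot be told apart.

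In the GRCr8 assembly, which is that of a Brown Norway rat, Gtpbp4 lies on chromosome 17 from 65997472 to 66019530 on the plus strand. RefSeq lists 3 further loci named after it, the pseudogenes Gtpbp4-ps1, Gtpbp4-ps2 and Gtpbp4-ps3 on chromosomes 2, X and 4. The sequences of the probes were not used here, so which of the loci a probe matches was not tested. The 250 bases before the start of the gene as RefSeq's promoter table places it are shown because they belong to 1 of the founder strains of the Mhm*BN group. They lie inside the annotated span of the gene, and the capitals mark each GGAAGT, the core of the motif of ETS factors.
Gtpbp4, chr17:65999133-65999382, plus strand: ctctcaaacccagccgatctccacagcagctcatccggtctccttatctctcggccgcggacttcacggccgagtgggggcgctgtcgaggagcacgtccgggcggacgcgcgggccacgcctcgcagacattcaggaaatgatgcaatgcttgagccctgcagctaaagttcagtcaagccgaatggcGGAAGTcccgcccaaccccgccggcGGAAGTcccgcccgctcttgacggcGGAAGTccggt

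The motif GGAAGT, searched on both strands after the sequence had been seen, occurred 3 times, 61, 36 and 11 bases before the start and each time on the plus strand. At least 1 match was present in 19.2% of 33469 promoters of this length and at least 3 in 0.4%. CACGTG, the E-box bound by Myc, had 0 matches here and was present in 5.59% of the promoters. The sequence had a GC content of 65.2%, compared with a median of 51.2%. No measurement of binding or methylation was made, so the matches are a description of the sequence.

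Levels are log2 intensities after background correction and quantile normalization, combined over the probes of a gene, and a log2 fold change of 1 is a doubling. A gene other than Gtpbp4 is said to be called, higher or lower where its p in limma, adjusted over all genes, was under 0.05.

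Males of the Mhm*BN group stood apart from all other rats in the expression of Gtpbp4. The log2 intensity on their 3 arrays was 10.24, 10.57 and 10.48 on chips 25, 26 and 27. In females of the same group it was 8.60, 8.48 and 8.49 on chips 45, 46 and 47. Every male pool was thus far above every female pool, and the distance between the sexes was several times the spread within a sex.

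US males came next, with 9.50, 9.39 and 9.39 on chips 2, 37 and 38, and US females had 8.65, 8.72 and 8.81 on chips 4, 57 and 58. In the Mhm group males had 9.04, 9.22 and 9.002 on chips 1, 21 and 22, and females 8.95, 8.97 and 8.96 on chips 3, 41 and 42. The sexes did not overlap in any of the 3 rat groups, but in Mhm rats they nearly touched, with 9.002 as the lowest male and 8.97 as the highest female value.

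**Figure D1:**
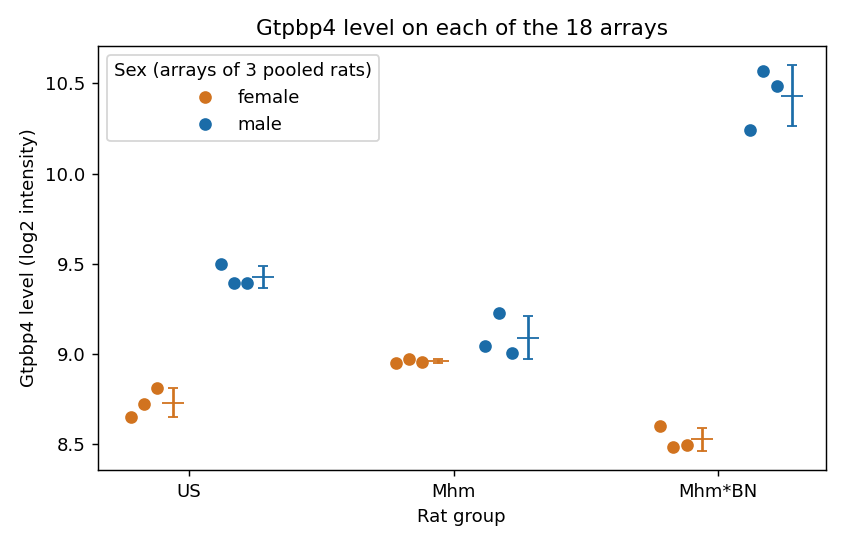
Gtpbp4 level (log2 intensity, vertical) on all 18 arrays, by rat group (horizontal) and sex. Points are arrays of 3 pooled rats, and bars show the mean and SD of 3 arrays. Males of the Mhm*BN group lie between 10.24 and 10.57, above all other arrays, of which the highest is at 9.50, and females of the Mhm*BN group lie lowest.

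Expressed as the mean and SD of 3 arrays, the level was 10.43 ± 0.17 in Mhm*BN males, 9.43 ± 0.06 in US males and 9.09 ± 0.12 in Mhm males. In females the order of the rat groups was a different one, with 8.96 ± 0.0097 in Mhm, 8.73 ± 0.08 in US and 8.53 ± 0.06 in Mhm*BN rats. The Mhm*BN group thus held both the highest and the lowest mean. None of the 15 pairs of these 6 groups overlapped, which was the case for 0.0211% of all genes. Besides Gtpbp4 that was Acadm, an enzyme of fatty acid oxidation. Neighbours in this order with the smallest distance were males and females of the Mhm group, whose means differed by 0.13, about the SD of the males.

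The log2 fold change of males over females was 1.91 in Mhm*BN, 0.70 in US and 0.13 in Mhm rats (limma standard error 0.07 each). These are 3.75-fold, 1.62-fold and 1.09-fold higher levels in males. In Mhm*BN rats only Rgn, a calcium-binding protein, and the organic anion transporter Slco1a1 among the 9479 genes had a larger fold change, while Gtpbp4 ranked 65 by size in US and 834 in Mhm rats. Between the 5th and the 95th percentile of all genes, fold changes were -0.14 to 0.16 in Mhm*BN rats. On chips 1 to 4 alone, which held no Mhm*BN arrays, the male US array lay at 9.50 and the female at 8.65, and the Mhm arrays at 9.04 and 8.95. Without chips 1 to 4 the log2 fold change was 0.62 in US rats and 1.94 in Mhm*BN rats. A term for these chips in the fit was added after the data had been seen. It cannot change a sex difference, since these chips held a male and a female array each of US and Mhm rats only. The values thus stayed at 1.91 in Mhm*BN, 0.70 in US and 0.13 in Mhm rats.

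The departure of the Mhm*BN group had opposite signs in males and females. Mhm*BN males exceeded the mean of US and Mhm males by 1.17 on the log2 scale (2.25-fold, standard error 0.06). Mhm*BN females lay below the mean of US and Mhm females, at a log2 difference of -0.32, where the level of the other females was 1.25-fold that of Mhm*BN females. The difference in males was the larger of both. By size it ranked 4 among the 9479 genes, and the difference in females ranked 552. Over the 11 probes the difference was -0.02 to 1.62 in males and -0.70 to -0.04 in females. Without chips 25 and 46 the log2 fold change of males over females in Mhm*BN rats was 1.98, the difference of Mhm*BN males from other males was 1.26 and that of the females -0.31. Leaving out each of the 18 arrays in turn, the log2 fold change of males over females in Mhm*BN rats ranged from 1.82 to 2.00.

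Nearly all probes carried the difference. The mean of the Mhm*BN males was above that of the Mhm*BN females for all 11 probes, and for 10 of them the 3 male arrays did not overlap with the 3 female arrays. Among all probes of named genes 4.82% did so in this direction. In the US group 8 probes were higher in males without overlap (7.08% of all probes) and in the Mhm group 2 (6.88% of all probes). No probe had males below females without overlap in any rat group. For the same 10 probes the Mhm*BN males also lay above all the other 15 arrays. Of 12076 probe sets with 1 named gene, 48 had at least 10 of 11 probes apart in this way in Mhm*BN rats (0.397%). The arrays that chose the gene are the same, so these counts describe how the difference was spread over the probes.

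**Figure D2:**
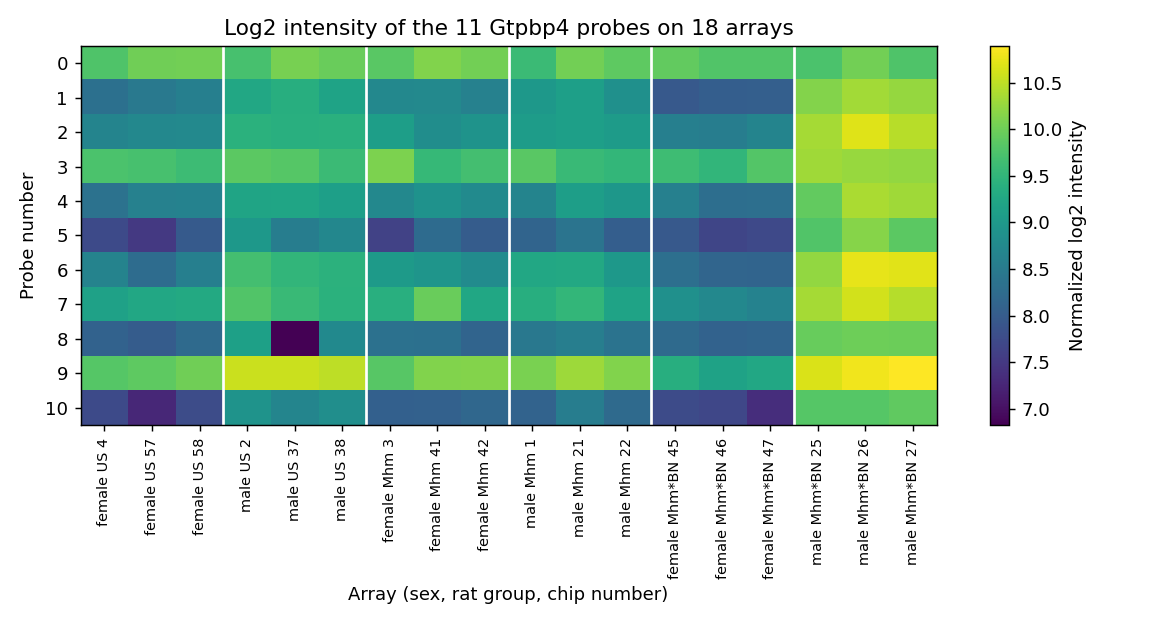
Normalized log2 intensity (colour) of the 11 probes of Gtpbp4 (rows, by probe number in the deposited table) on the 18 arrays (columns, by sex, rat group and chip number, with white lines between groups). The 3 columns of Mhm*BN males are brighter in 10 rows, and probe 0 is about equal in all columns.

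Probe 6 had the largest change. Its raw intensity on chips 25, 26 and 27 of the Mhm*BN males was 1501, 1992 and 1920, compared with 382.8, 366.5 and 340 on chips 45, 46 and 47 of the females. After normalization this was a log2 fold change of 2.36. Probes 10, 1 and 5 followed with 2.25, 2.23 and 2.15, and probes 2, 8, 4, 7 and 9 had 1.90, 1.82, 1.80, 1.73 and 1.52. Over all 11 probes the median was 1.82 in Mhm*BN, 0.64 in US and 0.14 in Mhm rats.

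A pair of probes behaved differently from the rest. Probe 3 had a log2 fold change of 0.63 in Mhm*BN rats, with raw intensities of 1570, 1418.5 and 1378 in males and 905.8, 861.3 and 982.3 in females. Probe 0 had 0.02, with raw intensities of 1093, 1203 and 1002 in males and 1114, 1035 and 973.5 in females. Over all 18 arrays probe 0 kept within a range of 0.52 on the log2 scale, and its Pearson correlation with the summary of the other 10 probes was -0.05. For probe 3 this correlation was 0.77, and for the other 9 probes it was 0.77 to 0.98. Over the 11 probes the log2 fold change in Mhm*BN rats was smaller where the mean level over all females was higher (Spearman's rho -0.83). The Mhm*BN female arrays enter both of these values. These correlations share their arrays and are a description.

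The brightest value of any Gtpbp4 probe was 2190, whereas the brightest probe of an array was at 18933 or more, so that no probe of the gene was near the upper end of the scale.

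Single spots of the probe set deviated in other groups. On chip 41 of the Mhm females probe 7 had a raw intensity of 1088.8, compared with 555 and 660.8 on chips 3 and 42. Probe 8 had a raw intensity of 157.5 on chip 37 of the US males, compared with 495 and 511.8 on chips 2 and 38. The summary by median polish gives little weight to such a value, and the level of chip 37 was 9.39, equal to that of chip 38. When each probe was left out in turn, the log2 fold change ranged from 1.83 to 1.96 in Mhm*BN, from 0.66 to 0.71 in US and from 0.10 to 0.16 in Mhm rats.

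**Figure D3:**
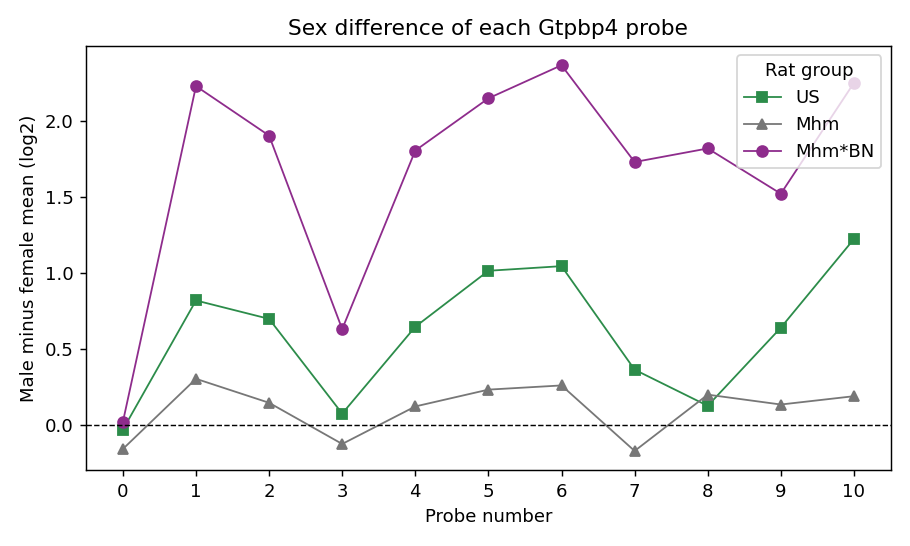
Mean of the males minus mean of the females (log2, vertical) for each probe of Gtpbp4 (horizontal) in the 3 rat groups. In Mhm*BN rats the values are 1.52 to 2.36 for 9 probes, 0.63 for probe 3 and 0.02 for probe 0, and in Mhm rats they are -0.17 to 0.30.

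Genes next to Gtpbp4 on the chromosome had much smaller sex differences in Mhm*BN rats. The nearest measured genes were Larp4b, an RNA-binding protein, on the lower side and Idi1, an isomerase of cholesterol synthesis, on the upper side. In US rats both were higher in males, with log2 fold changes of 0.29 for Larp4b (standard error 0.07, limma, adjusted p = 0.0167) and 0.34 for Idi1 (standard error 0.06, limma, adjusted p = 0.00149). That comparison called 3.15% of all genes, 2.28% as higher in males. In Mhm*BN rats Idi1 was called at 0.25 (limma, adjusted p = 0.0419), where 1.41% of all genes were called, 1.19% as higher in males, and Larp4b had 0.23 (limma, adjusted p = 0.105). The call of Idi1 in Mhm*BN rats was lost under 13 of 28 alternatives, and that of Larp4b in US rats under 4. Idi1 is also among the genes that the study selected on these arrays.

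The other 8 neighbours, Actn2, Mtr, Chrm3, Zmynd11, Adarb2, Pfkp, Klf6 and Akr1e2, were not called between males and females of any rat group, with log2 fold changes of -0.16 to 0.19. The size of the sex difference depended on the rat group for 0.116% of all genes and for none of these 10 (0 genes; limma's F test of the interaction). In the males 4 neighbours differed between Mhm*BN and the other rat groups, where 17.9% of all genes did. Akr1e2, an aldo-keto reductase, and Pfkp, a phosphofructokinase of glycolysis, were higher in Mhm*BN males by 0.23 and 0.22. Idi1 and the chromatin reader Zmynd11 were lower, at -0.22 and -0.21, and the call of Zmynd11 was lost under 16 of 27 alternatives. In the females Zmynd11 and Idi1 were lower in Mhm*BN rats as well, at -0.39 and -0.18 (21.8% of all genes called). The nearest genes, Larp4b and Idi1, had log2 differences of -0.09 and -0.22 in Mhm*BN males from the other males. Akr1e2 had a higher mean in males in Mhm*BN rats only, at 0.19 (limma, adjusted p = 0.362), with -0.01 in US and -0.03 in Mhm rats. Its call in males was lost under 7 of 27 alternatives. Over the 18 arrays Pearson's r with Gtpbp4 was 0.54 for Akr1e2, 0.51 for Larp4b and -0.50 to 0.35 for the other neighbours.

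**Figure D4:**
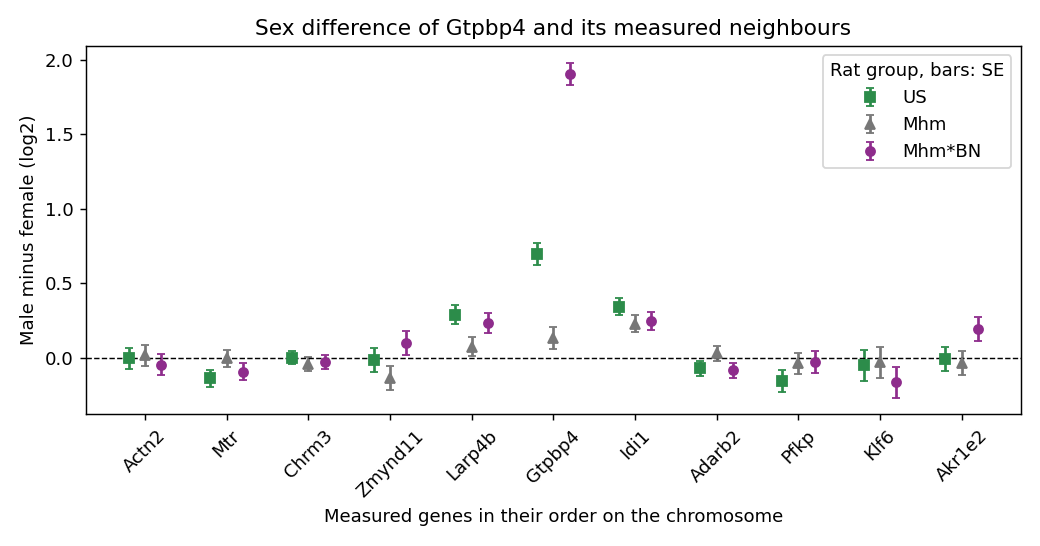
Male minus female (log2, vertical) in the 3 rat groups for Gtpbp4 and the 5 nearest measured genes on each side, in their order on the chromosome (horizontal, not to scale). Bars show the standard error. Gtpbp4 reaches 1.91 in Mhm*BN rats, and no neighbour lies above 0.34 in any group.

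Of the measured factors of ribosome assembly, not counting Gtpbp4, which was given no test, 0 were called between males and females. Of 154 genes on 4 lists of assembly factors 101 were measured, and 0 of them passed the test in any rat group (limma). The test called 3.15% of all genes in US, and 1.32% and 1.41% in the Mhm and Mhm*BN groups. At an unadjusted p under 0.05 the numbers were 3, 1 and 6 of 101, compared with 11.6%, 6.86% and 11.6% of all genes. In Mhm*BN rats their log2 fold changes ranged from -0.16 to 0.17, with a median of -0.01, which was the median of all genes too. In US rats they ranged from -0.25 to 0.15 and in Mhm rats from -0.16 to 0.10. With another offset of the background correction Riok1, a kinase of small subunit assembly, became called in Mhm*BN rats, and without chip 1 of the Mhm males so did Rrp15, a factor of the large subunit. Both were lower in males.

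Factors of the large subunit, the branch in which Gtpbp4 works, had 46 measured members of 65, with log2 fold changes of -0.16 to 0.17 in Mhm*BN rats and a median of -0.01. The 30 measured factors of the small subunit ranged from -0.16 to 0.10. The 13 proteins of small nucleolar ribonucleoproteins and rRNA modification ranged from -0.07 to 0.10, and the 12 genes of RNA polymerase I transcription, which makes the ribosomal RNA precursor, from -0.12 to 0.03. Among 12 measured GTPases related to Gtpbp4, the values in Mhm*BN rats were -0.07 to 0.10 and 0 were called. The GTPases of large subunit assembly Gnl2, Gnl3 and Lsg1 had -0.01, 0.07 and -0.05, and Bms1 of the small subunit had -0.07. The mitochondrial Mtg2, Noa1 and Gtpbp3 had 0.04, 0.06 and -0.0030. Values of the others were -0.04 for Drg2, 0.10 for Ola1, -0.01 for Gnl1, 0.03 for Gtpbp1 and -0.05 for Gtpbp2.

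Between the rat groups some assembly factors did differ, in either sex, as did 17.9% of all genes in males and 21.8% in females. In males 12 of the 101 genes were higher and 3 lower in the Mhm*BN group, compared with 10.2% of all genes higher and 7.75% lower. Polr1c, a subunit of RNA polymerase I, was higher by 0.30 (standard error 0.06, limma, adjusted p = 0.00196). Nop53, Ccdc86 and Bccip of the large subunit list were higher by 0.27, 0.22 and 0.20, Ngdn, Rrp7a and Rcl1 of the small subunit list by 0.27, 0.24 and 0.14, and Nop10 and Fbl of the small nucleolar ribonucleoproteins by 0.22 and 0.19. Nucleolin (Ncl) was lower, at -0.37 (standard error 0.08, limma, adjusted p = 0.00603), and so was the kinase Riok3, at -0.17. All of these were smaller than the 1.17 of Gtpbp4. Their number depended on single arrays: 6 genes were called without chip 25, 27 without chip 26, and 7 without chips 25 and 46. On chips 21 to 58 alone 10 were called.

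In females 19 assembly factors were higher and 6 lower in the Mhm*BN group (11.6% and 10.1% of all genes), while Gtpbp4 was at -0.32. Ngdn, Polr1c and Polr1h, another subunit of RNA polymerase I, were higher by 0.29, 0.24 and 0.22, and Mybbp1a and Polr1e of the same list by 0.20 and 0.17. On the large subunit list Ccdc86, Wdr18 and Nop53 were higher by 0.21, 0.20 and 0.20, and on the small subunit list Tbl3 and Bud23 by 0.20 and 0.15. Of the small nucleolar ribonucleoproteins Nhp2, Fbl and Ruvbl2 were higher by 0.24, 0.17 and 0.12, and Nop58 was lower at -0.17. The calls of Nhp2 and Nop53 in females were lost under 14 and 12 of 27 alternatives. Ncl was lower at -0.55 (standard error 0.08, limma, adjusted p = 0.000288) and Riok3 at -0.21. Of the related GTPases Drg2 was higher by 0.25 in females and 0.18 in males, Gnl3 was lower at -0.19 in females and Ola1 at -0.18 in males. Of 27 alternatives the call of Gnl3 was lost under 14, that of Ola1 under 16 and that of Drg2 in males under 6. The total of called factors in females was 16 without chip 41, 16 without chip 42 and 11 without chip 45. On chips 21 to 58 alone it was 18.

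Ribosomal proteins, the building blocks of the subunits, had higher levels in Mhm*BN rats of both sexes. Of 64 measured members of 79, 44 were higher in Mhm*BN males and 0 lower, and in females 50 were higher and 1 lower (10.2% and 11.6% of all genes higher). The lower gene was Rps3a, at -0.19 (limma, adjusted p = 0.0473), and this call was lost under 21 of 27 alternatives. The median log2 difference was 0.23 in males and 0.27 in females, compared with 0.01 and 0.02 over all genes. The largest were Rps15 with 0.76 in each sex, Rpl32 with 0.64 and 0.63, Rps10 with 0.52 and Rpl15 with 0.51 in males, and Rps16 with 0.63 and Rpl12 with 0.59 in females. Between males and females of a rat group 0 ribosomal proteins were called by limma, while 2 had an unadjusted p under 0.05 in the US group, 2 in the Mhm group and 6 in the Mhm*BN group, compared with 11.6%, 6.86% and 11.6% of all genes. Their median log2 fold change was -0.06 in Mhm*BN rats. On chips 21 to 58 alone 39 were higher in males and 48 in females.

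**Figure D5:**
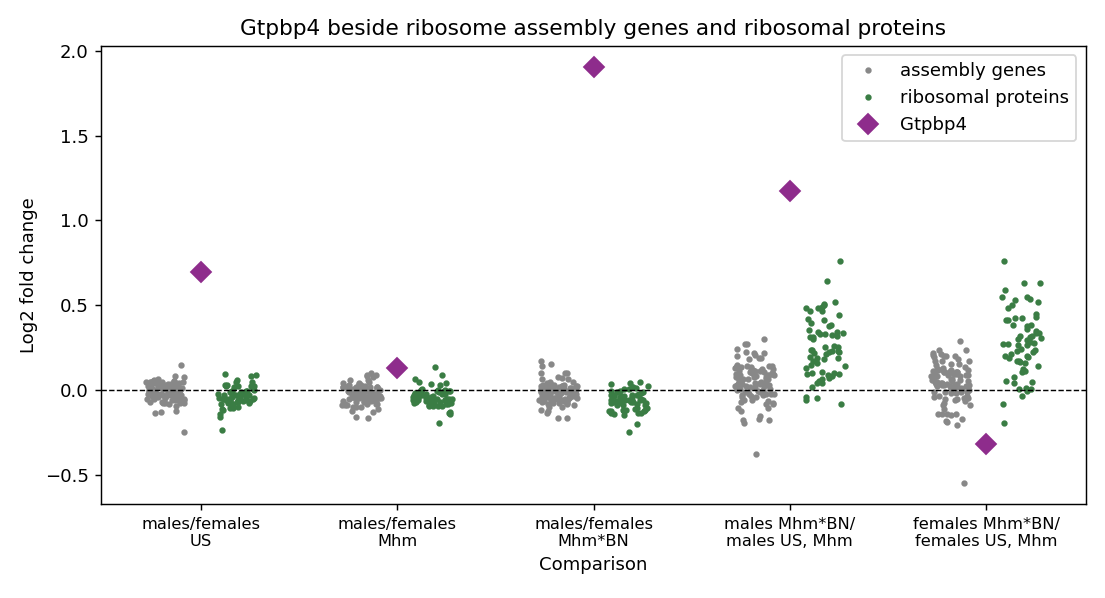
Log2 fold change (vertical) of the 101 ribosome assembly genes (grey), the 64 ribosomal proteins (green) and Gtpbp4 (diamond) in 5 comparisons (horizontal), with 1 point per gene and random spread in the horizontal direction. Gtpbp4 lies at 1.91 for males over females of the Mhm*BN group, where the assembly genes lie between -0.16 and 0.17. The ribosomal proteins lie higher in Mhm*BN rats of both sexes.

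The genes most like Gtpbp4 over the 18 arrays were Nme7, of the nucleoside diphosphate kinase family, with a Pearson's r of 0.92, and Cyp2c11, a steroid hydroxylase typical of male rat liver, with 0.90. Oxnad1 (0.88), the anticoagulant protein C (Proc, 0.87) and Mccc1 (0.85), an enzyme of leucine breakdown, followed. They were the closest of 9478 genes and the arrays fall into groups, so the coefficients are a description. Their Spearman's rho was 0.80, 0.82, 0.73, 0.73 and 0.79. The log2 fold change of males over females in Mhm*BN rats was 0.67 for Nme7, 0.87 for Cyp2c11, 0.39 for Oxnad1, 0.66 for Proc and 0.53 for Mccc1, all below the 1.91 of Gtpbp4.

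For Nme7 the 3 arrays of Mhm*BN males lay at 9.44 to 9.67 and all others at 8.62 to 9.18, so that they were apart as for Gtpbp4. For Oxnad1 they overlapped, with 9.18 to 9.42 and 8.80 to 9.23. In all, 81 genes had the Mhm*BN males above the other 15 arrays (0.855%). The gap between the lowest Mhm*BN male and the highest other array was 0.74 on the log2 scale for Gtpbp4, the widest of all, and 0.27 for Hsd17b4, an enzyme of peroxisomal fatty acid oxidation and the next one. With the mean of each sex taken out, the closest genes were Nme7 (r = 0.83), Cyp2c11 (0.82), Pter (0.82), Oxnad1 (0.81) and Plekhh1 (0.79). Pter lies on chromosome 17 like Gtpbp4, and the others on chromosomes 13, 1, 16 and 6.

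Both measured genes of the list of red blood cell markers were also high in Mhm*BN males. Of the 7 genes of the list 2 were measured, Hbb and Alas2, and the alpha globin Hba-a3 was added after the data had been seen. The beta globin Hbb had log2 levels of 11.94, 12.20 and 12.05 on chips 25, 26 and 27 of the males and 11.83, 11.01 and 11.25 on chips 45, 46 and 47 of the females. Alas2, which makes heme in red cell precursors, was higher in Mhm*BN males than in females by 0.43 (limma, adjusted p = 0.0298, lost under 7 of 28 alternatives), while Hbb had a difference of 0.70 (limma, adjusted p = 0.0544). Compared with US and Mhm males the differences were 0.52 and 0.96 (limma, adjusted p = 0.000724 and 0.000573). Hba-a3 had log2 levels of 11.72, 11.82 and 11.66 in Mhm*BN males. In Mhm*BN females the levels were 11.50, 10.89 and 10.95, so that the means differed by 0.62. No p-value is given for Hba-a3, since it was named after its values had been seen. All 3 genes were among the 81 with the Mhm*BN males above the other 15 arrays, with gaps of 0.16 for Hba-a3, 0.11 for Hbb and 0.10 for Alas2. The mean log2 level of both listed markers was 10.50 to 10.66 in Mhm*BN males, 9.76 to 10.40 in Mhm*BN females, and 9.57 to 10.27 on the other arrays. Their part in the level of Gtpbp4 was not tested. Since whole kidney was used, more cells of a type and more RNA per cell cannot be told apart.

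Other marker lists differed less between the sexes in Mhm*BN rats. Of 12 measured genes of dividing cells, Melk, a mitotic kinase, was called between the sexes in Mhm*BN rats, at 0.30, and 4 of the 12 had an unadjusted p under 0.05 (11.6% of all genes). All 12 had a higher mean in Mhm*BN males than in Mhm*BN females. In US and in Mhm rats 10 of the 12 were higher in males too. The median log2 fold change of the list was 0.09 in Mhm*BN, 0.08 in US and 0.08 in Mhm rats. Over all genes it was -0.01 in each rat group. The mean level of the list was 8.19 to 8.25 in Mhm*BN males and 8.04 to 8.16 in Mhm*BN females. Melk was higher in males of US and Mhm rats too, at 0.82 and 0.51, and lower in Mhm*BN males than in the other males, at -0.29. No gene of the lists of adrenal cortex (4 measured), adipocytes (5), leukocytes (7) or kidney segments (14) was called between males and females of the Mhm*BN group (0 genes in limma; 0, 0, 1 and 2 at an unadjusted p under 0.05, compared with 11.6% of all genes). In US rats Cubn of the proximal tubule (-0.84) and Plin1 of adipocytes (-0.19) were lower and the water channel Aqp1 (0.42) was higher in males, and in Mhm rats Cubn (-0.71) and Plin1 (-0.27) were lower. In Mhm*BN rats Cubn had -0.41 and Aqp1 0.23, in the same directions but not called (limma, adjusted p = 0.0984 and 0.222), and Plin1 had -0.02. The call of Plin1 in US rats was lost under 17 of 27 alternatives. In males the Mhm*BN group had lower levels of Fabp4 of adipocytes (-0.50), of Ptprc (-0.20) and Cd68 (-0.19) of leukocytes, and of the kidney transporters Slc34a1 (-0.49), Slc4a1 (-0.46) and Slc12a1 (-0.33), and a higher level of Cdh16 (0.23), where 17.9% of all genes were called.

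In females the Mhm*BN group had lower levels of the kidney transporters Slc4a1 (-0.71), Slc12a1 (-0.67) and Slc12a3 (-0.43), of the calcium-binding Calb1 (-0.33), of Fabp4 (-0.46) and Plin1 (-0.21) of adipocytes and of Cyp11a1 (-0.15) of the adrenal cortex, where 21.8% of all genes were called. Cdh16 was higher in Mhm*BN females, at 0.21 (limma, adjusted p = 0.0265). The calls of Slc12a3 and Cyp11a1 were lost under 12 and 9 of 27 alternatives. In the females, as in the males, these markers differed between the same rat groups as the ribosomal proteins did, and their part in that was not tested.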

How the data were processed

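Kidney RNA of 18 pools of rats had been hybridized to Affymetrix Rae230A arrays. The values deposited by the authors are log2 intensities of single perfect-match probes, and no array had been scaled to another. Their scanner settings are not given in the sources used here. The platform's annotation gave a single gene for 12076 probe sets, which made 9479 genes, and 9470 of these had a symbol in the GRCr8 gene table. Background was corrected by normexp with an offset of 50, quantile normalization followed, and the log2 values of all probes of a gene were combined by median polish. In limma, 6 group means were fitted over 18 arrays, and a gene was called where its p, adjusted by Benjamini-Hochberg over all genes, was under 0.05. The number of arrays limits the precision.

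Members and lists were chosen with earlier results of these data known. By rule the text names the 5 nearest measured genes on each side, the 5 most alike genes by Pearson's r (over all arrays and with sex means removed), the related GTPases, and per list and comparison up to 4 called genes with the largest change. Outside it, Riok1, Rrp15, Rps3a, Acadm, Rgn, Slco1a1, Sry, Hsd17b4, Hba-a3 and, in females, Cdh16 were named after their values had been seen. Alternatives were other background, normalization and summary settings, chips 21 to 58 alone, a filter at the 25th percentile, separate fits, a term for chips 1 to 4 and leaving out arrays. The study's mixed model, on other probe set definitions, was not repeated. Scripts were tested on simulated data. R 4.3.3 and limma 3.58.1 were used.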

Additional observations from a re-analysis of the deposited data

Results flagged for a closer look

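Melk, a mitotic kinase of the list of dividing cells, had a sex difference whose size depended on the rat group. Males exceeded females by 0.82 on the log2 scale in US rats, by 0.51 in Mhm rats and by 0.30 in Mhm*BN rats, and the adjusted p of the interaction was 0.015 in limma. Plekhh1, 1 of the genes most like Gtpbp4 within a sex, had every male array below every female array in US rats (log2 fold change -0.24) and in Mhm rats (-0.36), and every male array above every female array in Mhm*BN rats (0.46). For Plekhh1 that difference was not tested here, since the gene was picked by its likeness to Gtpbp4.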

How the results depend on the processing

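The sex differences of Gtpbp4 kept their direction in all 3 rat groups under each alternative that was run for them. The filter on dim genes and the separate fits leave these values as they are and were not run for them. The term for chips 1 to 4 cannot change these sex differences either, since these chips were balanced by sex. With the mean of the probes in place of median polish they were 1.67 in Mhm*BN and 0.60 in US rats. With the mean of the deposited values scaled to the same median they were 1.54 and 0.58, and Mhm*BN males exceeded the other males by 0.92. Both settings give full weight to probe 0. Without chips 1 to 4 the US value was 0.62. Leaving out each array in turn gave 1.82 to 2.00 in Mhm*BN, 0.66 to 0.75 in US and 0.06 to 0.18 in Mhm rats, 1.09 to 1.28 for Mhm*BN males over other males and -0.36 to -0.29 for the females. In each of these 10 probes were apart. The numbers of called assembly genes were less stable. In Mhm*BN males over other males 15 were called, 25 with the mean of the probes, 27 with the mean of the deposited values, 7 without chips 25 and 46 (an alternative added after the data had been seen), and 6 to 27 with each array left out. In females 25 were called, and 11 to 34 with each array left out. Between the sexes in Mhm*BN rats it was 0, 1 with an offset of 16, and 0 to 1 with each array left out. The cause was not tested. With a term for chips 1 to 4, also added after the data had been seen, Gtpbp4 had 1.17 in males and -0.33 in females against the other rat groups, and 15 assembly genes were called in males and 19 in females. Of 74 calls of named genes, tried 2004 times in all, 249 trials lost the call and 0 turned the direction. As Gtpbp4 has 1 probe set, taking each probe set on its own changes nothing. No paired analysis was run, since the labels name no pairs of arrays. Low signals near background limit what can be seen in dim probes.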
